A study of Mus musculus with 18 samples.

Results

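Igsf6, Cldn11, Amigo2, Hecw2 and F13a1 are 5 genes picked because they were among the strongest losses in drug-treated basophils with floxed Cebpa alleles. They are 5 of the 19084 genes with a probe on the microarray used, and 7 of its 26423 probes carry their symbols. For Amigo2 and Hecw2, which have 2 probes each, the brighter one on average was used. The genes were chosen by their levels on these same arrays, with treated floxed cells as one side of the contrast and the other side not named, so the differences that involve the treated floxed cells are given as descriptions with no test.

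RNA of C57Bl/6 mice was measured in 6 groups of 3 arrays. Fresh basophils came straight from the marrow of mice injected 3 days earlier with a complex of interleukin-3 and an antibody to it. Mast cells were grown from bone marrow for 4 weeks in interleukin-3 at 20 ng/ml. The other groups were purified basophils cultured for 5 days in interleukin-3 at 20 ng/ml, with the genotype Cebpa +/+ RosaYFP/creER (wild type) or Cebpa f/f RosaYFP/creER (floxed). Each genotype was cultured without a drug or with 4-hydroxytamoxifen at 100 nM for 5 days. All cultured basophils, controls included, therefore carried RosaYFP/creER, while the labels of fresh basophils and mast cells give no genotype. CreER is a recombinase that becomes active when 4-hydroxytamoxifen binds it, and active Cre removes DNA between loxP sites. The sources used here do not give the promoter that drives creER, the age of the mice or whether cells were sorted on the reporter. The labels do not say whether the 3 arrays of a group came from separate mice or cultures, so each p-value reflects array-to-array spread only, which may be technical.

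Cebpa encodes C/EBPα, a basic leucine zipper factor that binds DNA as a dimer and drives the formation of granulocytes and monocytes from progenitors. Basophils are rare granulocytes of allergic and antiparasite responses. Mast cells are tissue-resident cells that share the high-affinity IgE receptor with them. Igsf6 encodes a membrane protein of the immunoglobulin superfamily found on myeloid cells. Amigo2 encodes a cell surface protein with leucine-rich repeats and an immunoglobulin domain that takes part in cell adhesion. Cldn11 encodes claudin-11, a tight junction strand protein known from myelin and from Sertoli cells of the testis. Hecw2 encodes an E3 ubiquitin ligase of the NEDD4 type, which attaches ubiquitin to target proteins through a HECT domain. F13a1 encodes the catalytic A subunit of coagulation factor XIII, a transglutaminase that cross-links fibrin and is made by platelets and macrophages.

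The sequence just upstream of each start site is shown because a C/EBP factor binds DNA, and the 5 genes differ in whether a loose form of its site occurs there. The windows are the 250 bases before the RefSeq start on GRCm38.p6, written 5′ to 3′ on the gene's strand. They lie at chr7:121074531-121074780 for Igsf6, chr3:31149670-31149919 for Cldn11, chr15:97247288-97247537 for Amigo2 and chr1:54195035-54195284 for Hecw2. The first window of F13a1 is chr13:37050245-37050494. Cldn11 is on the plus strand and the others are on the minus strand. Capitals mark matches of TTNNGNAA, a relaxed C/EBP motif, on either strand.
Igsf6: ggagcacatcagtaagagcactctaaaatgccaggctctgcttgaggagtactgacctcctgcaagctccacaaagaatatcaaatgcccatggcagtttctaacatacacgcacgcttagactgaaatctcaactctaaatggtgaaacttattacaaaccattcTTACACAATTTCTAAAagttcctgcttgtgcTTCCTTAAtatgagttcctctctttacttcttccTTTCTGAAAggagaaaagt
Cldn11: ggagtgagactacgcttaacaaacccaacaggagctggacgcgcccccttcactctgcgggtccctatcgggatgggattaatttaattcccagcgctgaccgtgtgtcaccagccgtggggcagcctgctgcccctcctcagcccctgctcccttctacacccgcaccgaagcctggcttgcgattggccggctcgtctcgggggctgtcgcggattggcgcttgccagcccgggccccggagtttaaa
Amigo2: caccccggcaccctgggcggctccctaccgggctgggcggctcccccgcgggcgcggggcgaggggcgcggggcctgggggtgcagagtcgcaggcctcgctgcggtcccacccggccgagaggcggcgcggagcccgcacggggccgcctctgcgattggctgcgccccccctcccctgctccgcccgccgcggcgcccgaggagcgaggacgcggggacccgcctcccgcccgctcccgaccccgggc
Hecw2: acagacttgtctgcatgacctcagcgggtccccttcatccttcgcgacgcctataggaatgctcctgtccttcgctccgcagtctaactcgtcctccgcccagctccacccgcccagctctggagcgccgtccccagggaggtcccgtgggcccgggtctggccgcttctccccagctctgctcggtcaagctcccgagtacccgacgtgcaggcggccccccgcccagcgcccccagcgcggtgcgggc
F13a1: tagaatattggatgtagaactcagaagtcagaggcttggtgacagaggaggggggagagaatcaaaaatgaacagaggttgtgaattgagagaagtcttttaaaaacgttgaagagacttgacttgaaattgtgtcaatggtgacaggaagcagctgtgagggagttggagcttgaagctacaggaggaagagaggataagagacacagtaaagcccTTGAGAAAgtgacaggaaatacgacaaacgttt
The Igsf6 window held 5 matches, beginning 84, 76, 53, 19 and 18 bases before the start, of which the last pair overlap. The F13a1 window held 1 match, beginning 33 bases before the start. The windows of Cldn11, Amigo2 and Hecw2 held 0 matches, as did the second start of F13a1 at chr13:37049214-37049463. Of 32851 windows of the same length over all genes, 36.8% held at least 1 match, so a single match is common. How many windows held 5 matches was not counted, nor were windows of like base composition compared. The stricter form TTGCNNAA occurs in 9.56% of all windows, the GATA factor site AGATAA in 9.99%, the PU.1 site GAGGAAGT in 2.44% and TATAAA in 12.4%, and 0 of the 6 windows of the 5 genes held any of these 4 on either strand. Base composition differed widely, with G and C making up 40.4% of the Igsf6 window, 42.8% of the first F13a1 window, 63.6% for Cldn11, 70.0% for Hecw2 and 84.0% for Amigo2, against a median of 52.4% over all windows. A missing match says only that these letters are not in this window.

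Values below are probe intensities after background subtraction by the authors, quantile normalized over the 18 arrays. Fold changes are on the scale log2(intensity + 16) from limma fits over all probes, with adjusted p-values (Benjamini-Hochberg) against a threshold of 0.05. Percentages of a level are ratios of group mean intensities without the added 16, so they can differ from the fold changes beside them. An intensity under 30 was treated as background. Levels of different probes cannot be ranked against each other, so the order given is always that of groups within a gene. Mean deposited intensities per array were 461.3 to 700.1, and 47.3% to 54.8% of probes exceeded 30. Basophil markers (10 of 10 measured) were all above background in fresh and untreated cultured basophils, but 1 was at background in treated floxed basophils. In treated floxed against treated wild type 4 of the 10 fell and 2 rose, where 14.6% of all probes fell and 15.4% rose. Their sums were 146862 to 152432 against 165730 to 172204. With the drug in floxed cells 6 fell and 1 rose, where 9.21% of all probes fell and 9.43% rose. Neutrophil markers such as Elane and Mpo summed to 85974 to 88615 in fresh basophils, 17299 to 19436 in untreated wild type and 672 to 707 in mast cells. In RNA of a whole population, fewer cells of a type and less RNA per cell cannot be told apart.

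Cebpa itself followed the labels of the cultured groups. It read 2280, 2602 and 2226 in untreated wild type basophils and 2973, 2822 and 2539 in treated wild type. It read 1055, 935 and 959 in untreated floxed basophils, and 69.1, 69.4 and 57.8 in treated floxed. Every floxed array was below every wild type array, and every treated floxed array was below every untreated one. Treated floxed cells held 2.36% of the Cebpa level of treated wild type (log2 fold change -5.07 ± 0.10 SE, adjusted p = 1.99e-11). Untreated floxed cells held 41.5% of the untreated wild type level (-1.26 ± 0.10, adjusted p = 4.67e-06). The drug did not pass the test for Cebpa in wild type (0.23 ± 0.10, adjusted p = 0.147). The sources used here do not say whether the Cebpa probe lies in the deleted part of the gene.

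**Figure D1:**
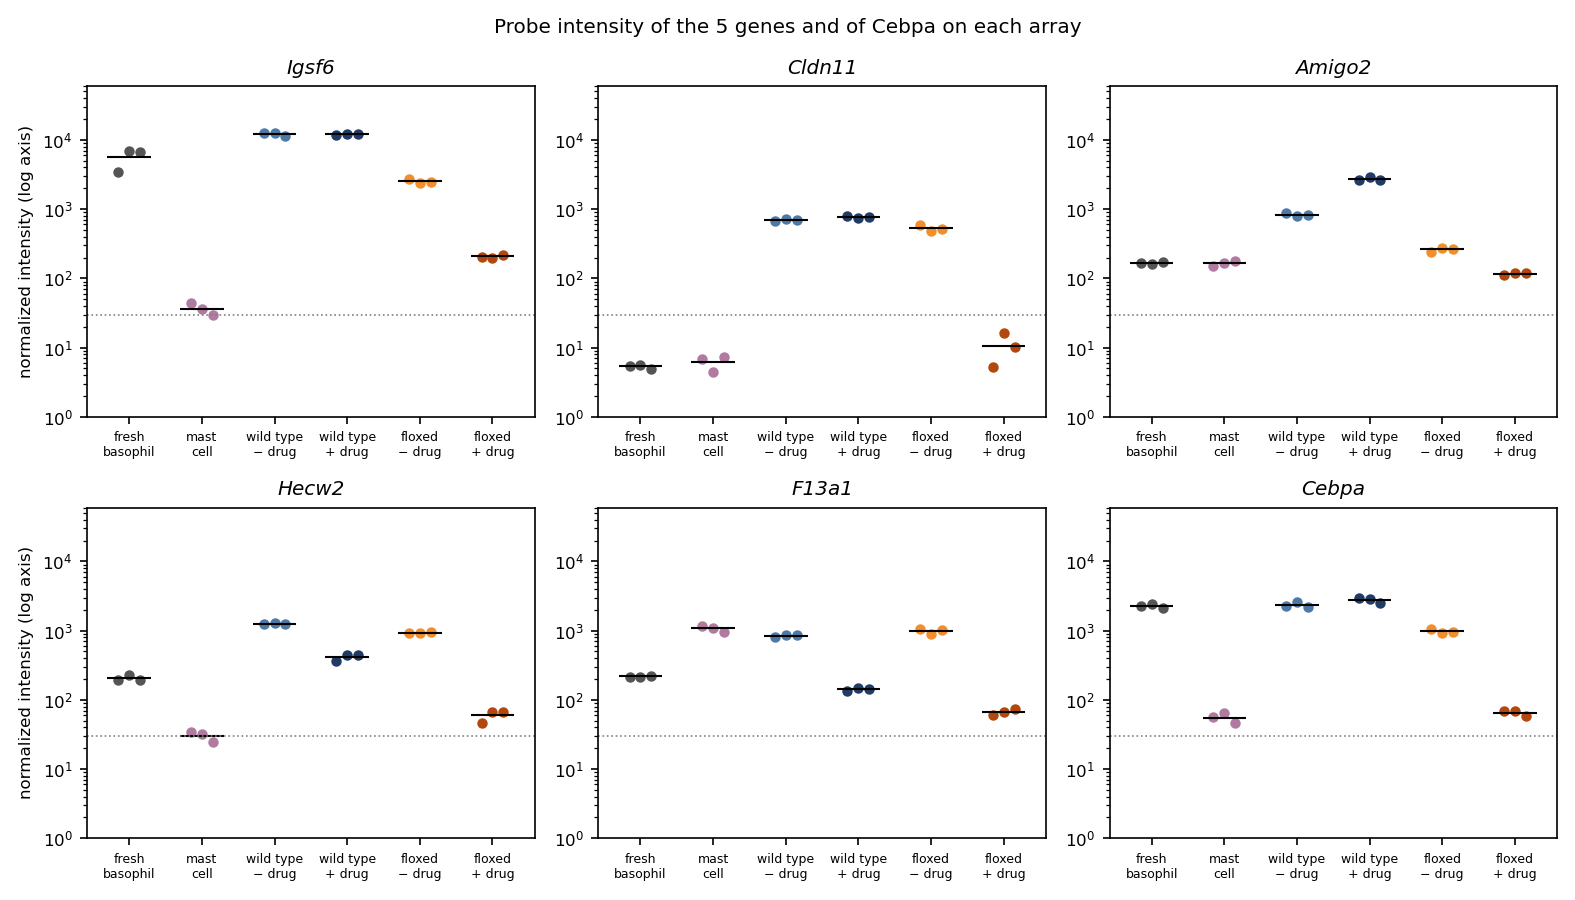
Normalized probe intensity (log axis) of the 5 genes and of Cebpa on each of the 18 arrays, by group, with a line at the mean of 3 arrays and a dotted line at the background limit of 30. Igsf6, Cldn11, Amigo2, Hecw2 and F13a1 all have lower points in treated floxed basophils than in treated wild type, but Hecw2 and F13a1 are also lower in treated than in untreated wild type.

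Igsf6 was the lowest of the 19084 genes in treated floxed against treated wild type basophils. It read 11585, 12184 and 12184 in treated wild type and 12642, 12642 and 11252 in untreated wild type, and these groups overlapped. It read 2715, 2391 and 2503 in untreated floxed basophils. In treated floxed basophils it read 207, 199 and 217, apart from every other group. The treated floxed level was 1.73% of treated wild type and 8.17% of untreated floxed. The difference from treated wild type was -5.74 ± 0.085 on the log2 scale, a 53.5-fold lower value. The drug difference within wild type was -0.02 ± 0.085, and its sign turned without any 1 of 3 arrays. Igsf6 thus had the same order of the 4 cultured groups as Cebpa, except that the wild type groups, which overlap in both genes, change places.

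Cldn11 was the gene with the lowest value in treated against untreated floxed basophils and the third lowest against treated wild type. It read 794, 749 and 769 in treated wild type and 665, 716 and 705 in untreated wild type. It read 598, 480.5 and 512 in untreated floxed basophils. In treated floxed basophils it read 5.17, 16 and 10.3, all at background, and no array of the other cultured groups came near. Its loss is therefore a bound, at least 25.7-fold against treated wild type and at least 17.6-fold against untreated floxed. In wild type the treated level was 111% of the untreated one, and the arrays did not overlap. This drug difference was 0.14 ± 0.13, and its sign turned (-0.07) without normalization between arrays.

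Amigo2 stood apart from the others in wild type basophils by how much higher its level was with the drug. It read 871, 803 and 833 in untreated cells and 2634, 2886 and 2627 in treated ones, or 325% of the untreated level (1.69 ± 0.083). Of 19084 genes, Amigo2 ranked 19076 from the lowest in that difference. In floxed basophils the untreated arrays read 241, 276 and 268 and the treated ones 112, 119 and 118, or 44.4% of the untreated level (-1.05 ± 0.083). The 4 cultured groups did not overlap. The level in treated floxed was 20.3-fold lower than in treated wild type (-4.34 ± 0.083). This difference joins a level that was higher with the drug in wild type and a level that was lower with the drug in floxed cells. It also holds the lower level of untreated floxed than of untreated wild type cells (-1.60 ± 0.083). A second Amigo2 probe had the same directions, with smaller values (-3.53 between treated genotypes and 0.84 for the drug in wild type).

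Hecw2 and F13a1 had lower levels with the drug in both genotypes. Hecw2 read 1264, 1270 and 1239 in untreated and 367, 445 and 438 in treated wild type, so that the treated level was 33.1% of the untreated one (-1.56 ± 0.12). In floxed basophils the untreated arrays read 909, 912 and 963 and the treated ones 46.4, 65.7 and 67.6, which is 6.45% of the untreated level (-3.61 ± 0.12). All 4 groups were apart. Between treated genotypes the difference was -2.49 ± 0.12. A second Hecw2 probe was near background (40.7, 55.4 and 52.2 in untreated wild type, and under 30 on every treated array).

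F13a1 read 797, 858 and 855 in untreated wild type and 135, 147 and 143 in treated wild type, which is 16.9% of the untreated level (-2.40 ± 0.093). Floxed arrays read 1046, 906 and 1020 untreated and 59.6, 66.6 and 74.7 treated, which is 6.76% of the untreated level (-3.56 ± 0.093). The groups were apart. Among 19084 genes F13a1 ranked 15 and Hecw2 ranked 41 from the lowest in the drug difference of wild type basophils. Between treated genotypes F13a1 differed by only -0.92 ± 0.093, rank 698. Hecw2 and F13a1, picked as losses in treated floxed cells, were thus lower on the drug-treated arrays of both genotypes. The cause of either difference was not tested.

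**Figure D2:**
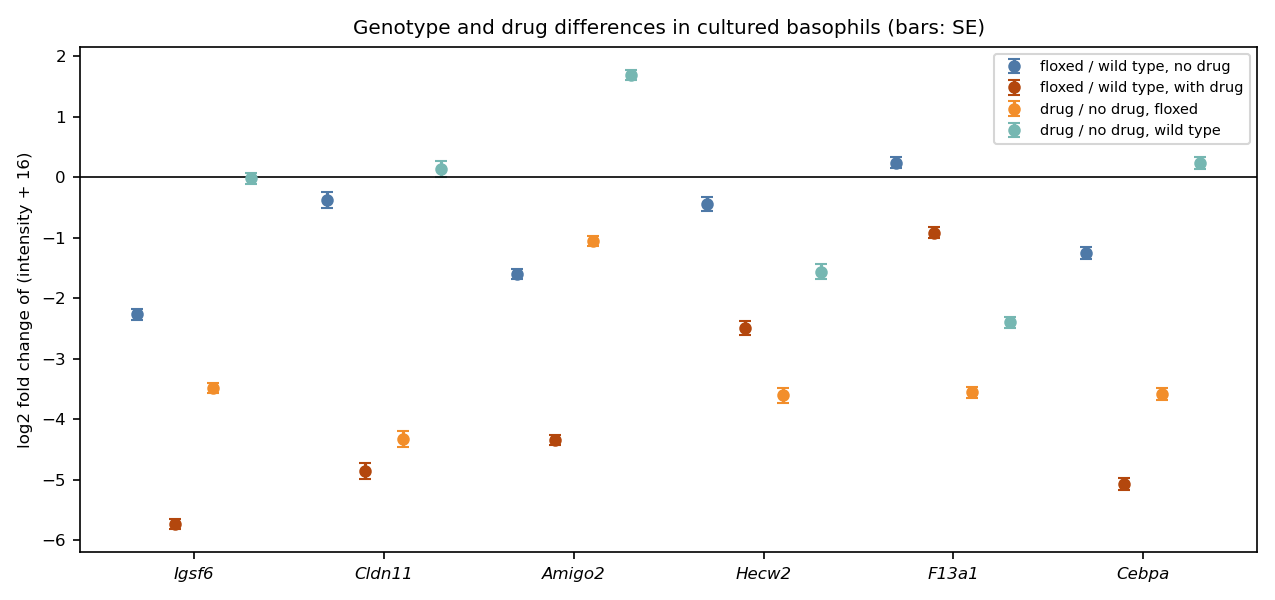
Log2 fold change of (intensity + 16), with SE bars, for 4 comparisons of cultured basophils in the 5 genes and Cebpa. The drug in wild type sits near 0 for Igsf6 and Cldn11, at 1.69 for Amigo2, at -1.56 for Hecw2 and at -2.40 for F13a1; treated floxed values of Cldn11 rest on background readings.

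The drug difference in floxed minus that in wild type cells was negative for all 5 genes, at -4.47 ± 0.19 for Cldn11, -3.47 ± 0.12 for Igsf6, -2.75 ± 0.12 for Amigo2, -2.05 ± 0.17 for Hecw2 and -1.16 ± 0.13 for F13a1. For Cebpa, which was tested, it was -3.80 ± 0.14 (adjusted p = 3.04e-08). Over the array, 5.81% of probes passed the test with a negative difference of this kind and 5.46% with a positive one. Between treated genotypes 14.6% of probes passed as lower and 15.4% as higher in floxed cells. The drug lowered 9.21% and raised 9.43% of probes in floxed cells, and lowered 9.70% and raised 10.7% in wild type. The choice of genes fixed these directions and nothing is read from them. Over 19084 genes, 270 passed the test as at least 2-fold lower with the drug in floxed cells and 146 in wild type, and 32 were in both lists (11.9% of the first and 21.9% of the second).

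No threshold was named for the choice, so the ranks show where it fell. In treated floxed against treated wild type, Cebpa ranked 2 (-5.07) between Igsf6 and Cldn11. Ifit1, an interferon-induced RNA-binding protein, ranked 4 (-4.51) between Cldn11 and Amigo2, and Cxcr2, a neutrophil chemokine receptor, ranked 6 (-4.07) just after Amigo2. Nt5e, the ectoenzyme CD73, ranked 7 (-3.93). In treated against untreated floxed cells Cldn11, Hecw2, F13a1 and Igsf6 ranked 1, 2, 4 and 6, with Cebpa at 3 (-3.58), Cxcr2 at 5 (-3.50) and Nt5e at 7 (-3.47). Amigo2 ranked 260 there. Around Hecw2, which ranked 72 between treated genotypes, lay Lyst and Rn7sk (both -2.49) and 9930111J21Rik1 (-2.48), and around F13a1 lay Ufd1, Pmp22 and Plekhg5 (all -0.92).

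Before any drug, floxed basophils already had less Igsf6 and Amigo2 than wild type basophils. The comparison of untreated floxed with untreated wild type cells asks whether the genotypes differed without induced recombination. Igsf6 was at 20.8% of the wild type level (-2.27 ± 0.085, 4.81-fold lower, adjusted p = 1.21e-08). Amigo2 was at 31.3% (-1.60 ± 0.083, 3.02-fold lower, adjusted p = 1.25e-07), and its second probe fell as well (-1.66 ± 0.15, adjusted p = 9.84e-06). The untreated floxed level of Igsf6 was a smaller share of wild type than that of Cebpa (41.5%).

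Hecw2 passed narrowly at 73.8% of the wild type level (-0.44 ± 0.12, adjusted p = 0.0247), and the call was lost without any 1 of the 6 arrays (adjusted p = 0.0517 to 0.0740) and with median scaling (-0.24, adjusted p = 0.5). The second Hecw2 probe, near background, passed as well (-0.63 ± 0.17, adjusted p = 0.0232). Cldn11 was at 76.2% (-0.38 ± 0.13) and did not pass (adjusted p = 0.0787), although it passed under 4 of the 14 alternatives. F13a1 was at 118% of the wild type level (0.24 ± 0.093, adjusted p = 0.120). For each of the 5 genes the 3 floxed and 3 wild type arrays did not overlap. So 3 of the 5 genes passed as lower and 0 as higher, where 6.83% of all probes passed as lower and 8.03% as higher, and 14.9% were lower and 16.6% higher without overlap. Should the choice of genes have used the treated against untreated floxed difference, it favoured high levels on the untreated floxed arrays. That is the direction opposite to the calls made here. Should it have used the difference between treated genotypes, it favoured genes that are lower in floxed cells with or without the drug. That is the direction of these calls, so nothing is read from their count. Hecw2 and F13a1 ranked 2 and 4 in treated against untreated floxed cells, but 72 and 698 between treated genotypes. The untreated floxed arrays may therefore have taken part in their choice, and the p-values above only describe single genes.

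Markers of other cell types differed between the same untreated groups. Of 11 measured monocyte and macrophage markers, 9 fell and 1 rose in floxed basophils (median -1.34, against 0.0012 over all probes). Their summed intensity was 14929 to 16388 in wild type and 11738 to 13055 in floxed cells. C1qa, a complement component of macrophages, read 1521, 1683 and 1681 against 219, 197 and 200. Of 10 neutrophil markers 6 fell and 1 rose, with sums of 17299 to 19436 against 8658 to 9181, and 1 marker was at background in either group. Of 9 mast cell markers 5 fell and 0 rose (median -0.50), with sums of 78762 to 81132 against 76173 to 76897. Of 7 megakaryocyte and platelet markers 4 fell and 1 rose, with sums of 10937 to 12625 against 4525 to 5745. Between the treated genotypes 9 of 11 monocyte and macrophage markers fell and 2 rose in floxed cells, and 8 of 10 neutrophil markers fell and 1 rose (sums of 2278 to 2528 against 15856 to 16318). There 6 of the 9 mast cell markers rose and 0 fell, with sums of 126270 to 134757 against 85144 to 86473. The part of these cells in the levels of the 5 genes was not tested.

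Fresh basophils and mast cells, which took no part in the culture with the drug, separated Igsf6 and Hecw2 from F13a1. Igsf6 read 3421, 6901 and 6757 in fresh basophils and 43.4, 36.3 and 29.4 in mast cells, the last at background, a 109-fold higher level in basophils (6.77 ± 0.26, adjusted p = 2.72e-07). Hecw2 read 191, 231 and 194 against 34.3, 31.6 and 24.2, the last also at background, and was 4.93-fold higher (2.30 ± 0.13, adjusted p = 2.41e-06). F13a1 went the other way, with 214, 215 and 223 in basophils and 1170, 1093 and 970 in mast cells, a 4.83-fold lower level in basophils (-2.27 ± 0.10, adjusted p = 7.22e-07). In these 3 genes the groups did not overlap.

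Amigo2 read 167, 162 and 171 in fresh basophils and 152, 167 and 181 in mast cells. The groups overlapped, and the difference was 0.01 ± 0.10 with a 95% interval of -0.23 to 0.24 (adjusted p = 0.972). Without normalization between arrays it was 0.50 and passed (adjusted p = 0.00591), and its sign turned when 1 fresh basophil or 1 mast cell array was left out. Cldn11 was at background on all arrays of both groups, with 5.44, 5.67 and 4.94 in basophils and 6.94, 4.39 and 7.22 in mast cells, so no fold is given. Of the 5 genes, 2 were higher in basophils and 1 was lower, where 17.1% of probes passed as higher and 20.7% as lower, and 21.7% were higher and 27.0% lower without overlap. The Cebpa level of fresh basophils exceeded that of mast cells 33.2-fold (5.05 ± 0.12, adjusted p = 2.19e-08), so its low level in mast cells stood beside a low level of Igsf6 and Hecw2 and a high level of F13a1.

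All 5 genes were higher in cultured untreated wild type basophils than in fresh ones. A choice by loss among cultured cells needs a measurable level in a cultured control group, which favours this direction, so the p-values below describe single genes and nothing is read from their count. Cldn11, at background in fresh basophils, was at least 23.2-fold higher (adjusted p = 5.99e-15). Hecw2 was 5.77-fold higher (2.53 ± 0.12, adjusted p = 2.81e-11) and Amigo2 4.66-fold (2.22 ± 0.082, adjusted p = 1.22e-12). F13a1 was 3.65-fold higher (1.87 ± 0.092, adjusted p = 4.10e-11). Igsf6 was 2.24-fold higher (1.16 ± 0.19, adjusted p = 9.70e-05), with a fold that ranged from 0.83 to 1.34 on the log2 scale when single arrays were left out, since the first fresh array read 3421 against 6901 and 6757.

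Groups did not overlap for any of the 5, which the choice of genes also favours, so nothing is read from it. Of all probes 17.3% passed as higher and 17.6% as lower, and 23.6% were higher and 23.6% lower without overlap. Cebpa did not pass in this comparison (0.08 ± 0.11, 95% interval -0.15 to 0.31, adjusted p = 0.661), and its arrays overlapped. In fresh basophils Cldn11 was at background, and its relation to the Cebpa level was not tested. Culture, the RosaYFP/creER genotype and the interleukin-3 complex given to the mice cannot be told apart here.

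Set against mast cells, the cultured untreated wild type basophils had more of 4 genes and less F13a1. Igsf6 was 234-fold higher (7.87 ± 0.19, adjusted p = 2.19e-15), Hecw2 27.8-fold higher (4.80 ± 0.12, adjusted p = 3.33e-15) and Amigo2 4.68-fold higher (2.23 ± 0.082, adjusted p = 4.83e-13). Cldn11 was at least 23.2-fold higher (adjusted p = 2.18e-15). F13a1 was 1.28-fold lower (-0.36 ± 0.092, adjusted p = 0.00452), and that call was lost without normalization between arrays (-0.093, adjusted p = 0.565). Over all probes 16.9% passed as higher and 22.3% as lower. The choice favours higher levels in culture here too, and these comparisons share arrays with those above.

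Within each gene the order of the 6 groups was as follows. Igsf6 ran from wild type with or without the drug, which overlapped, through fresh basophils, untreated floxed and treated floxed to mast cells. Cldn11 ran from treated wild type through untreated wild type to untreated floxed, with treated floxed, mast cells and fresh basophils overlapping at background. Amigo2 ran from treated wild type through untreated wild type and untreated floxed to fresh basophils and mast cells, which overlapped, and was lowest in treated floxed. Hecw2 ran from untreated wild type through untreated floxed, treated wild type, fresh basophils and treated floxed to mast cells, with no neighbours overlapping. F13a1 was highest in mast cells and untreated floxed basophils, which overlapped, followed by untreated wild type, fresh basophils, treated wild type and treated floxed. Treated floxed cells were thus the lowest group for Amigo2 and F13a1 but not for Igsf6 and Hecw2, which were lower in mast cells.

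F13a1 belongs with the transglutaminases by its enzyme activity and with the coagulation factors by its role. Of 29 measured genes of both kinds 8 were higher and 2 lower in cultured untreated wild type than in fresh basophils (median 0.04, against 0.0119 over all probes). Of all probes 17.3% passed there as higher and 17.6% as lower. Tgm2, the tissue transglutaminase, read 200, 242 and 218 in fresh basophils and 14553, 13824 and 14069 in cultured untreated wild type, and was 60.2-fold higher (5.91 ± 0.079, adjusted p = 9.68e-18). F10, coagulation factor X, read 122, 120 and 133 against 2116, 1882 and 2054 (3.85 ± 0.10, adjusted p = 1.58e-14). F7, coagulation factor VII, was at background in fresh basophils and at least 12.7-fold higher in culture (adjusted p = 4.97e-14). Tfpi, the inhibitor of the factor VII and tissue factor complex, fell (-2.28 ± 0.14, adjusted p = 5.87e-10).

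In treated floxed against treated wild type basophils 4 of the 29 rose and 4 fell (median 0.01, against -0.0037 over all probes, of which 15.4% rose and 14.6% fell). Tgm2 read 5654, 5849 and 5581 in treated wild type and 1052, 1094 and 1002 in treated floxed (-2.44 ± 0.078, adjusted p = 5.08e-10). F10 read 1954, 1986 and 2000 against 307, 382 and 314 (-2.50 ± 0.11, adjusted p = 8.17e-09). F7 fell (-1.09 ± 0.079, adjusted p = 5.77e-07), and so did Plaur, the urokinase receptor (-0.90 ± 0.082, adjusted p = 4.35e-06), while Tfpi rose (1.47 ± 0.13, adjusted p = 3.95e-06).

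Tgm2 also fell with the drug in wild type cells (-1.32 ± 0.078, adjusted p = 1.22e-06), whereas F10 did not pass there (-0.03 ± 0.11, 95% interval -0.27 to 0.21, adjusted p = 0.907). The drug effects differed between genotypes for Tgm2 (-1.95 ± 0.11, adjusted p = 5.48e-07) and F10 (-1.80 ± 0.16, adjusted p = 1.64e-05). In untreated cells F10 (-0.70 ± 0.11, adjusted p = 0.000897) and Tgm2 (-0.49 ± 0.078, adjusted p = 0.00089) were lower in floxed, and both calls were lost with median scaling (adjusted p = 0.0784 and 0.493). Of 7 measured megakaryocyte and platelet markers 5 rose and 1 fell from fresh to cultured wild type basophils, with sums of 1856 to 2114 and 10937 to 12625, and their part in the coagulation genes was not tested. In fresh basophils against mast cells 8 genes of the list rose and 7 fell, where 17.1% of all probes passed as higher and 20.7% as lower.

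**Figure D3:**
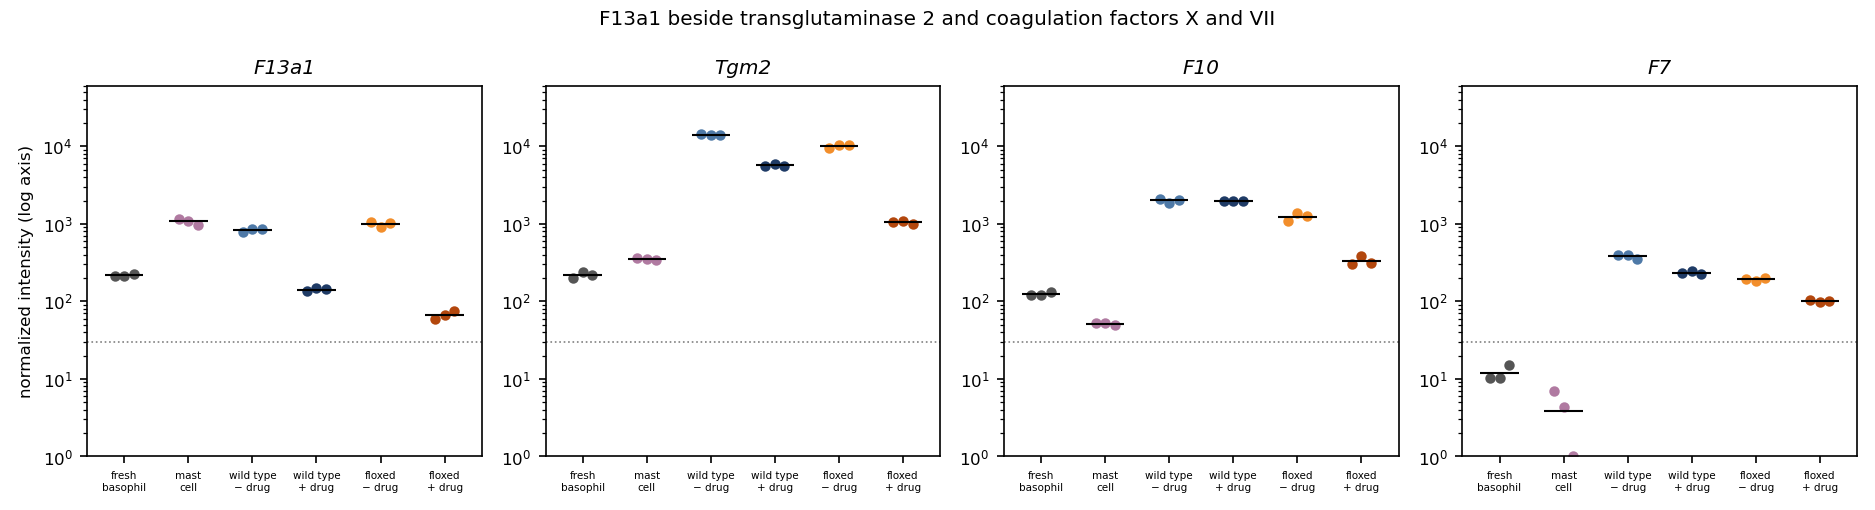
Normalized probe intensity (log axis) of F13a1, Tgm2, F10 and F7 on each array, by group, with a line at each group mean and a dotted line at the background limit of 30; 1 mast cell array of F7 at 0.306 is below the axis. Tgm2, F10 and F7 are higher in all cultured groups than in fresh basophils, and F13a1 is not, since its treated groups lie below the fresh one.

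Cldn11 is 1 of the claudins, which form tight junction strands with their partners. The counts below are read against the 15.4% of all probes that rose and 14.6% that fell between treated genotypes, and the 8.03% and 6.83% between untreated ones. From fresh to cultured untreated wild type basophils the shares were 17.3% and 17.6%. None of these lists was tested against the other genes. Of 29 measured claudin and tight junction genes 3 rose and 5 fell in treated floxed against treated wild type (median -0.05). Among them were Tjp3, a junction scaffold (-1.13 ± 0.096, adjusted p = 2.39e-06), Cldn15 (-1.07 ± 0.096, adjusted p = 4.03e-06) and Cldn2 (-1.03 ± 0.10, adjusted p = 1.10e-05). Cldn2, a pore-forming claudin, was like Cldn11 at background in fresh basophils (10.9, 11 and 8.72) and read 113, 115 and 113 in cultured untreated wild type, at least 3.78-fold higher (adjusted p = 5.59e-11). In that comparison 3 genes of the list rose and 3 fell, and 14 of the 29 were above background in some group. In untreated floxed against wild type 1 rose and 3 fell, of which 1 call was kept under both other scalings.

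The family list of Hecw2 held 8 measured genes, which were NEDD4-type ligases and Ndfip2, an adaptor of such ligases. Of these, 2 rose and 2 fell in treated floxed cells against treated wild type (median -0.10), 3 of these calls being lost under another scaling. The call kept was Smurf1 (-0.63 ± 0.11, adjusted p = 0.00101). From fresh to cultured basophils 3 rose and 0 fell, led by Smurf1 (1.55 ± 0.12, adjusted p = 9.58e-09) and Nedd4l (1.39 ± 0.097, adjusted p = 3.66e-09). In untreated floxed against wild type 0 passed.

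Of 19 measured immunoglobulin and leucine-rich repeat genes 1 rose and 5 fell in treated floxed cells (median -0.13). Lrig3 fell (-1.22 ± 0.11, adjusted p = 4.03e-06) and was lower in untreated floxed cells as well (-1.13 ± 0.11, adjusted p = 2.12e-05). Igsf5 rose at least 4.33-fold from background (adjusted p = 1.07e-08). In the closest relatives of Amigo2, Amigo1 and Amigo3, the treated genotypes did not pass the test.

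Of 5 measured C/EBP relatives of Cebpa, 2 rose and 2 fell in treated floxed cells (median -0.23). Cebpb fell (-0.81 ± 0.12, adjusted p = 0.000263), as did Cebpd (-0.84 ± 0.16, adjusted p = 0.00138), and Cebpe (0.64 ± 0.12, adjusted p = 0.00106) and Cebpg (0.61 ± 0.11, adjusted p = 0.00115) rose.

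Of 12 genes that overlap or flank the 5 genes in the RefSeq gene table, 1 rose and 4 fell between treated genotypes, and 1 rose and 4 fell between untreated ones. At the same time 15.4% and 14.6% of all probes rose and fell in the first and 8.03% and 6.83% in the second, and 3 of the 12 were at background. Mettl9, a histidine methyltransferase gene that overlaps Igsf6, read 2511, 2388 and 2226 in treated wild type and 920, 933 and 916 in treated floxed (-1.36 ± 0.077, adjusted p = 7.03e-08). It was lower in untreated floxed cells too (-0.77 ± 0.077, adjusted p = 2.97e-05) and higher in cultured than in fresh wild type basophils (1.71 ± 0.075, adjusted p = 1.07e-11), the directions of Igsf6. Unlike Igsf6, which was lower with the drug in floxed cells (-3.49), Mettl9 did not pass there (-0.03, adjusted p = 0.831) and rose with the drug in wild type (0.56, adjusted p = 0.000354). It did not pass between fresh basophils and mast cells (0.17 ± 0.098, adjusted p = 0.224), where Igsf6 differed by 109-fold.

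Pced1b, which overlaps Amigo2, was dim, with 87.4, 71.2 and 75.5 in treated wild type and 39.4, 35.4 and 41.4 in treated floxed (-0.77 ± 0.099, adjusted p = 7.01e-05). Rpap3, on one side of Amigo2, rose in treated floxed (0.61 ± 0.14, adjusted p = 0.00456) and in untreated floxed cells (0.46 ± 0.14, adjusted p = 0.0423), the last call being lost without normalization (adjusted p = 0.117). Skil, beside Cldn11, differed by -0.41 ± 0.090 between treated genotypes (adjusted p = 0.00373), a call lost with median scaling (adjusted p = 0.0761). Stk17b, beside Hecw2, did not pass there (-0.21 ± 0.12, adjusted p = 0.208). Ly86, a partner of the Toll-like receptor relative RP105 that lies beside F13a1, fell in treated floxed cells (-1.69 ± 0.093, adjusted p = 5.24e-08) but rose with the drug in wild type (0.55 ± 0.093, adjusted p = 0.0014), where F13a1 was lower. Nrn1, on the other side of F13a1, was lower in fresh basophils than in mast cells (-4.11, adjusted p = 1.94e-07), as F13a1 was.

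The genes whose patterns over the 18 arrays were most like each gene, by Pearson's r among 12204 genes above background in some group, differed from gene to gene. They are descriptions over 18 arrays that share 6 groups. For Igsf6 they were Dgat1 (r = 0.993), which makes triglyceride, Rab11fip4 (0.989) and Hlx (0.986), a homeobox factor. Cebpa came 16th for Igsf6, at 0.975. Dgat1 read 1800, 1867 and 1847 in treated wild type and 222, 204 and 286 in treated floxed.

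For Cldn11 they were Thap4 (0.978), Pcdh7 (0.972), a protocadherin, and Stab1 (0.969). Pcdh7 shared the background level in fresh basophils, with 11.6, 11.9 and 6.94, and read 109, 123 and 118 in cultured untreated wild type. For Amigo2 they were 9930111J21Rik1 (0.982), Clec4e (0.981), the Mincle receptor, and Parp10 (0.980). Clec4e was, like Amigo2, highest in treated wild type, with 567, 541 and 554, against 233, 239 and 230 in untreated wild type. For Hecw2 they were P2ry10 (0.977), a G protein-coupled receptor, Fxyd4 (0.970) and Selenoi (0.963).

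For F13a1 they were Krba1 (0.958), Zdhhc4 (0.953) and Zbtb38 (0.940). Krba1 read 49.4, 54.3 and 51.3 in untreated wild type and under 30 on every treated array. The r of Cebpa itself was 0.827 for Hecw2, 0.665 for Amigo2, 0.656 for Cldn11 and 0.044 for F13a1. By Spearman's rho the top 3 held 1 of these genes for Amigo2, 1 for F13a1 and 0 for the other genes, so the names depend on the measure.

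**Figure D4:**
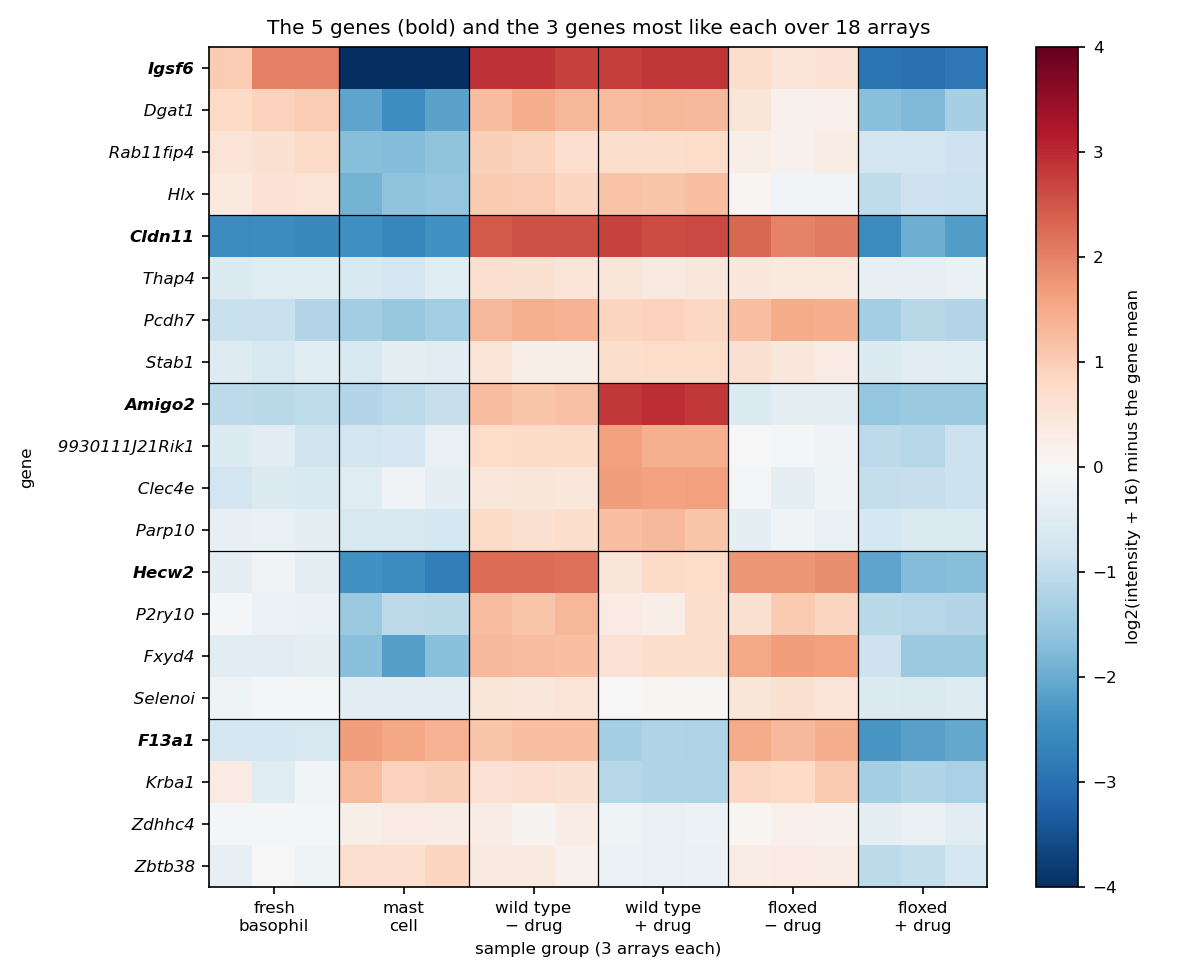
Colour map of log2(intensity + 16) minus the gene's mean over 18 arrays (colours end at -4 and 4) for the 5 genes in bold and the 3 genes most like each, with 3 arrays per group. The Igsf6 block is low in mast cells and treated floxed cells, the Cldn11 block is high in 3 of the 4 cultured groups, the Amigo2 block peaks in treated wild type, and the F13a1 block is low in both treated groups.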

How the data were processed

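The authors deposited linear intensity values of single-dye arrays, background-subtracted as the values below 0 show; scanner software and normalization are not stated in those sources. Of 26423 probes, 21876 had 1 gene symbol in the platform annotation, 0 several and 4547 none. Each fit (6, 12 or 18 arrays) began with quantile normalization and tested log2(intensity + 16) two-sided by limma 3.58.1 (R 4.3.3; lmFit, then eBayes), with Benjamini-Hochberg adjustment over all probes. Printed intensities are normalized over 18 arrays. A group under 30 on every array gives a bound: the brighter mean over the dim values raised to 30. The 12 cultured arrays shared a fit. Within groups arrays correlated at 0.9897 or more. Alternatives were other scalings, an offset of 50, no dim probes, an intensity trend, other arrays in the fit, a replicate block and single arrays left out. The scripts were tested on simulated data. The 5 genes, the gene lists, the rule for other named genes (the 3 most like each, the neighbours in the RefSeq table of GRCm38.p6, list members past the test) and the background limit were chosen with earlier results of these data known; some list members and markers were named after their values were seen. The number of arrays limits the precision, beside what the labels leave unsaid about replicates, background readings and the scaling.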

Additional observations from a re-analysis of the deposited data

Results flagged for a closer look

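Only Cebpa, the measured genes of the family lists and the 12 neighbours of the 5 genes were looked at here. The lists held 29 transglutaminase and coagulation, 29 claudin and tight junction, 19 immunoglobulin and leucine-rich repeat, 8 NEDD4-type and 5 C/EBP genes. For 12 of all the genes looked at, the drug effect differed between floxed and wild type basophils by the interaction term of the limma fit. Over all probes 5.46% passed this test as higher and 5.81% as lower, so such calls are common. Each difference is given as the effect in floxed minus that in wild type with its SE and adjusted p. All such values are on the log2(intensity + 16) scale with 3 arrays per group. Cebpa itself differed by -3.80 ± 0.14 (adjusted p = 3.04e-08), with drug effects of -3.58 in floxed and 0.23 in wild type. Among coagulation and transglutaminase genes, Tgm2 differed by -1.95 ± 0.11 (adjusted p = 5.48e-07; -3.26 and -1.32) and F10 by -1.80 ± 0.16 (adjusted p = 1.64e-05; -1.83 and -0.03). Plau, the urokinase plasminogen activator, differed by 1.03 ± 0.29 (adjusted p = 0.0376; 1.23 and 0.21).

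Among immunoglobulin and junction genes, Igsf5 differed by 1.43 ± 0.17 (adjusted p = 0.000197; 1.52 and 0.09). Tjp3 differed by -0.69 ± 0.14 (adjusted p = 0.00609; -0.71 and -0.02) and Cldn15 by -0.50 ± 0.14 (adjusted p = 0.0351; -0.66 and -0.16). Tjp1 differed by 0.54 ± 0.12 (adjusted p = 0.0156; 0.82 and 0.28). F11r, a junctional adhesion molecule, differed by -0.77 ± 0.22 (adjusted p = 0.0458; -0.14 and 0.63).

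Of the C/EBP genes, Cebpd differed by -1.14 ± 0.22 (adjusted p = 0.00593; -1.07 and 0.07) and Cebpg by 1.06 ± 0.16 (adjusted p = 0.00102; 0.80 and -0.26). Mettl9, which overlaps Igsf6, differed by -0.59 ± 0.11 (adjusted p = 0.00421; -0.03 and 0.56). The calls of Cldn15, F11r, Mettl9, Plau and Tjp1 were lost under at least 1 other scaling, and those of the other 7 genes were kept under both.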

How the results depend on the processing

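Over the 5 genes, 565 of 571 values under the alternatives kept their sign. The 6 that turned were Igsf6 for the drug in wild type, near 0 throughout, without any 1 of 3 arrays (range with single arrays left out -0.078 to 0.010), Amigo2 between fresh basophils and mast cells without fresh basophil replicate 3 (-0.012) or mast cell replicate 1 (-0.056; range with single arrays left out -0.056 to 0.063), and Cldn11 for the drug in wild type without normalization (-0.073). Of 114 counts of probes past the test, 111 were within 1.5 times the main count. With median scaling 3149 probes passed for the drug in floxed cells (main 4925), 3047 for the drug in wild type (5396) and 1487 for the difference of drug effects (2976), and the cause was not tested. The split of calls into higher and lower moved with the scaling. Fresh basophils against mast cells had 4518 higher and 5470 lower, and 8256 and 2307 without normalization. Untreated genotypes had 2121 and 1806, with 2109 and 778 by median scaling and 1392 and 2752 without normalization. Treated genotypes had 4077 and 3854, and 4796 and 2936 without normalization. Cultured against fresh basophils had 4574 and 4641, then 2876 and 4841, and 3369 and 6094, in the same order of scalings. Cultured basophils against mast cells had 4465 and 5904, and 6713 and 3342 without normalization. The drug in floxed cells had 2491 and 2434, and 1131 and 2018 by median scaling. The drug in wild type had 2834 and 2562, then 2068 and 979, and 1359 and 4681. The difference of drug effects had 1442 and 1534, then 414 and 1073, and 2643 and 701. The median of all probes moved to 0.159 between fresh basophils and mast cells without normalization, to 0.106 between cultured basophils and mast cells, and for the difference of drug effects to -0.126 with median scaling and 0.116 without normalization. Cldn11 in untreated floxed against wild type ranged from adjusted p = 0.00497 to 0.647 over the alternatives. F13a1 passed in that comparison with an offset of 50 (adjusted p = 0.0293). Replicate numbers did not pair the samples (r of same-numbered deviations -0.385 to 0.119), and with the replicate block 3410 probes passed between untreated genotypes against 3927 without it.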
